A study of Homo sapiens with 24 samples.

Results

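The comparison described here is the difference between 2 colorectal cancer cell lines, SW480 and SW620, in how RNA levels changed when the catalytic domain of TET2 (Tet2CD) was expressed. It was computed for each gene as the Tet2CD effect in SW480 minus the Tet2CD effect in SW620, where an effect is the log2 fold change of Tet2CD libraries over vector libraries. All 24 of 24 RNA-seq libraries of the series entered the comparison, 6 for each line and construct. The 6 libraries were 2 each of cells kept for 24 h with DMSO (the solvent control), with 4 ng/ml TGFB1 (a TGF-beta ligand) or with 1 µM RepSox (an inhibitor of the type I TGF-beta receptor). The groups were SW480 Tet2CD, SW480 vector, SW620 Tet2CD and SW620 vector, each with these 3 treatments. Cells of every group had received a lentivirus, carrying Tet2CD or nothing, and had been selected with 5 µg/ml puromycin. The values therefore describe selected populations with forced expression of a part of the protein, and separate infections or cultures within a group are not stated in the labels. Both lines were derived from colorectal adenocarcinoma of the same patient, SW480 from the primary tumour and SW620 from a lymph node metastasis.

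TET2 belongs to a family of dioxygenases that oxidize 5-methylcytosine in DNA to 5-hydroxymethylcytosine and further products, which is a first step towards removing the methyl mark. Methylation of cytosines in CG dinucleotides near a start of transcription is commonly linked to a silent gene, and imprinted and tumour-silenced genes are well-known examples. The study asked why the 2 lines respond differently to the same enzyme, and the comparison asks which RNAs were changed by Tet2CD to a different extent in SW480 and SW620.

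Total expected counts ran between 2146123 and 4410567 per library (median 3653712), and 14154 of 33382 listed genes had enough counts to be tested. A set of 3 SW480 Tet2CD libraries, replicate 1 with DMSO, TGFB1 and RepSox, stood apart from the rest. In them 30 listed ribosomal protein genes held 5.2%, 6.10% and 7.59% of all counts, against 3.0% to 4.64% in the other 21 libraries, and the GC content of the counted genes averaged 51.8%, 52.5% and 52.9%. The number of genes called in each comparison, and in the difference for each gene list, was therefore also computed without these 3 libraries. Counts of genes by overlap, fold, floor or sign, and of genes called in both lines, used all libraries unless stated. The colon epithelium markers summed to 9070 to 27800 CPM (counts scaled to an equal library total) in SW480 Tet2CD libraries, against 7120 to 12600 with vector, and to 7700 to 12300 CPM in SW620 Tet2CD libraries, against 8160 to 13300 with vector. KRT20, CDX1, CDH17, GPA33 and LGALS4 were low in that list. The 12 blood markers summed to 17.6 to 31.6 CPM in SW480 Tet2CD libraries, against 10.2 to 13.7 with vector. They summed to 33.6 to 64.0 CPM in SW620 Tet2CD libraries, against 45.6 to 68.7 with vector. CD4 had 10.7 to 18.6 CPM in SW480 Tet2CD libraries, against 1.35 to 3.01 with vector. CD68 had 14.2 to 27.6 CPM in SW620 Tet2CD libraries, against 26.2 to 40.6 with vector. PTPRC, MS4A1 and HBB were at or near 0. The 8 endothelial markers summed to 14.4 to 28.5 CPM in SW480 Tet2CD libraries, against 4.07 to 7.64 with vector, and to 4.20 to 17 CPM in SW620 Tet2CD libraries, against 4.62 to 12.3 with vector. In that list ESAM had 6.69 to 14.3 CPM in SW480 Tet2CD libraries, against 1.02 to 2.31 with vector, and KDR was at 0 in all libraries. The 10 fibroblast markers summed to 131 to 286 CPM in SW480 Tet2CD libraries, against 25.8 to 33.5 with vector, and to 55.8 to 77.4 CPM in SW620 Tet2CD libraries, against 51.7 to 70.4 with vector, most of it from FBLN1. In SW480 the sums of the blood, endothelial and fibroblast lists did not overlap between constructs.

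TET2 RNA was raised in both lines. TET2 (chr4:105145875-105279816 in GRCh38) had 277, 1298 and 2641 CPM in SW480 Tet2CD libraries, against 10.3, 19.3 and 23.8 CPM in SW480 vector libraries (lowest, median and highest of 6, as in all values below). TET2 in SW620 had 692, 1179 and 1275 CPM with Tet2CD, against 10.5, 13.2 and 25.0 CPM with vector. The Tet2CD libraries of each line lay above all vector libraries of that line. The TET2 effect was 6.22 ± 0.40 in SW480 and 6.12 ± 0.40 in SW620 (log2 fold change ± SE, edgeR's quasi-likelihood test), and the difference between lines of 0.09 ± 0.49 was not called (adjusted p = 0.90). Within SW480 the 6 Tet2CD libraries spread more widely than those of SW620, and the call turned on which libraries were used. The difference was called higher without the 3 libraries that stood apart (0.68 ± 0.21, adjusted p = 0.020) and lower in the libraries numbered 21 to 32 alone, which include these 3 (-1.03 ± 0.32, adjusted p = 0.020), and it was 0.70 ± 0.25 in those numbered 33 to 44 (adjusted p = 0.067). Reads of the construct and of the endogenous gene cannot be told apart in these values.

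The responses of the 2 lines differed greatly in extent. The difference between lines was called (adjusted p at or under 0.05) for 4059 genes, which is 28.7% of those tested, with 2093 higher (14.8%) and 1966 lower (13.9%), where higher means that Tet2CD raised the RNA more, or lowered it less, in SW480. In SW480 itself 4435 genes were called higher with Tet2CD than with vector (31.3%) and 3915 lower (27.7%). In SW620 44 genes were called higher (0.311%) and 7 lower (0.0495%). The 6 Tet2CD libraries and the 6 vector libraries did not overlap at all for 2951 genes in SW480 (20.8%) and for 75 genes in SW620 (0.53%). The 2 libraries of a group were least alike in SW480 Tet2CD cells, where the log2 differences between them had a SD across genes of 0.598 to 1.06 depending on the treatment, against 0.291 to 0.375 in SW480 vector cells and 0.225 to 0.377 in SW620 cells. The test used 1 estimate of this spread for a gene in all groups, so the SE of the 2 lines say little of how precise each line was. Among the 6350 genes with a mean of at least 5 on the log2 CPM scale, the median absolute effect was 0.48 in SW480 and 0.11 in SW620, and 86.6% of the genes stayed within 2-fold in SW480 and 99.9% in SW620. These values include the 3 SW480 Tet2CD libraries that stood apart and were not computed without them. Without the 3 libraries that stood apart, 3086 genes were called in the difference (1316 higher, 1770 lower), of which 2559 were called in the same direction with all libraries. The share of calls that were higher was then 42.6%, against 51.6% with all libraries. The count in SW620 was 490 without them, and 872 with limma voom, which weighted each library by its spread and gave these 3 weights of 0.308, 0.127 and 0.0961. Without these libraries the SW480 count fell from 8350 to 5942 (2883 higher, 3059 lower), and it was 6489 with voom. In SW620 the replicate 2 libraries alone, which hold none of these 3, gave 19 genes from fewer libraries. The counts of both lines thus changed on leaving out these 3 SW480 libraries. A low count can arise from fewer libraries alone, so the 19 genes do not show that the SW620 count was low without these 3.

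**Figure D1:**
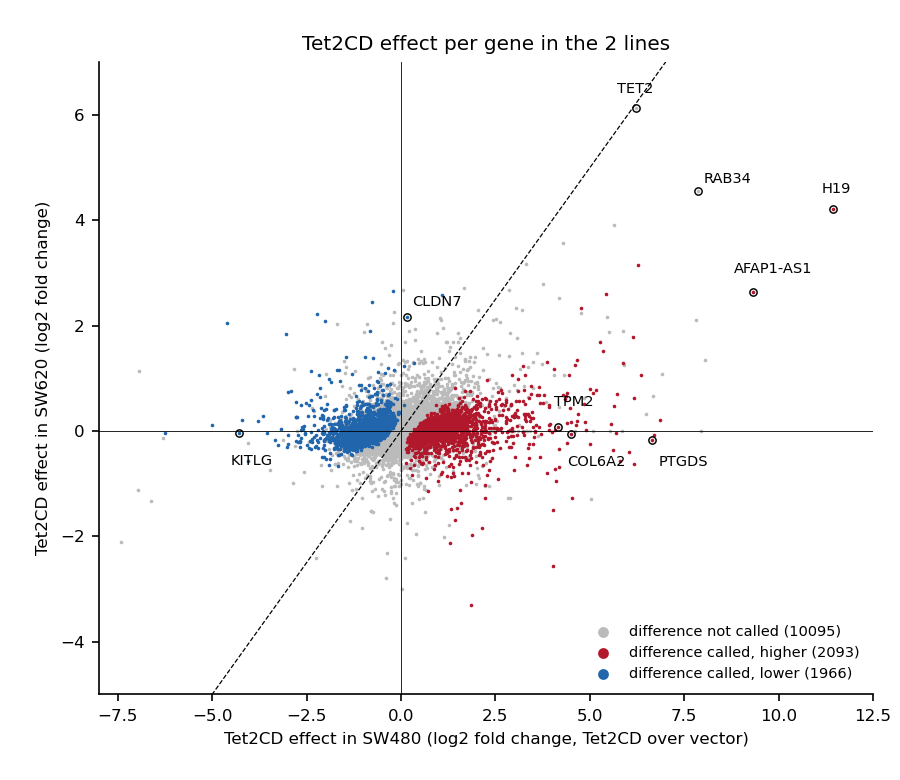
Tet2CD effect in SW480 (horizontal axis, log2 fold change of 6 Tet2CD over 6 vector libraries) against the Tet2CD effect in SW620 (vertical axis, same unit), 1 point for each of 14154 genes, with genes called in the difference between lines in red (higher) and blue (lower) and a dashed line where the effects are equal. The points are spread along the horizontal axis and form a narrow band on the vertical axis, with median absolute effects of 0.52 in SW480 and 0.14 in SW620.

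Among the genes called, the difference came mostly from the SW480 side. Of the 2093 genes called higher in the difference, 2057 (98.3%) were also called higher in SW480, and their median effect was 1.04 in SW480 and 0.02 in SW620. Of the 1966 called lower, 1904 (96.8%) were also called lower in SW480, with median effects of -0.86 in SW480 and -0.01 in SW620. Among all genes tested, 31.3% were called higher and 27.7% lower in SW480. The SW480 effect is part of the difference by which these genes were picked. That favours such shares and medians, so they are a description. The difference was at least 2-fold for 1074 of the genes called higher and for 711 of those called lower, and at least 4-fold for 269 and 99. Across all 14154 genes the 2 effects were weakly correlated (Pearson's r = 0.302, Spearman's rho = 0.34), as a description across genes, which are not independent replicates. The 2 lines share no library, and both effects were themselves correlated with GC content.

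The largest positive difference among the genes named belonged to H19. H19, an imprinted long noncoding RNA that is normally made from 1 parental copy, lies at chr11:1995176-2001470 on the minus strand. It had 758, 1060.3 and 1819 CPM in SW480 Tet2CD libraries, against 0, 0.398 and 0.878 CPM in SW480 vector libraries. Its SW620 levels were 9.53, 85.8 and 214 CPM with Tet2CD, against 2.70, 4.97 and 6.18 CPM with vector. H19 was thus near 0 in SW480 vector cells, and the Tet2CD and vector libraries did not overlap in either line. Its effect was 11.45 ± 0.55 in SW480 and 4.21 ± 0.40 in SW620, and the difference was 7.24 ± 0.75 (adjusted p = 1.6e-06). AFAP1-AS1, a long noncoding RNA from chr4:7754090-7778928 that runs antisense to AFAP1, had 162, 200.1 and 218 CPM in SW480 Tet2CD libraries, against 0, 0.262 and 0.511 CPM in SW480 vector libraries. The values in SW620 were 2.38, 4.44 and 5.70 CPM with Tet2CD, against 0.225, 0.539 and 1.42 CPM with vector. Its difference was 6.68 ± 0.55 (adjusted p = 1.1e-07), and again both lines were called higher. No source used here states whether strand entered the counting, so reads of AFAP1-AS1 and AFAP1 may have been mixed where the genes overlap. AFAP1, looked up for this reason, had effects of 0.50 in SW480 and 0.03 in SW620, and was also called higher in the difference.

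Promoter windows of 6 genes are shown because these genes carry the main patterns. H19 was near 0 in SW480 vector cells, SPARC was low there (0.255 to 6.88 CPM), and both were high with Tet2CD. COL6A2 and TPM2 are matrix and cytoskeletal genes called higher in SW480 and not in SW620. KITLG had the largest negative difference among the genes named, and CLDN7 was called higher in SW620 without a call in SW480. Each window runs 5′ to 3′ from 250 bases before to 50 bases after the RefSeq start on GRCh38.p14, 300 bases in all, and capitals mark CG dinucleotides, the sites at which methylation is usually found. The windows are H19 (chr11:2001217-2001516, minus strand, 6 CG), SPARC (chr5:151686866-151687165, minus strand, 11 CG), COL6A2 (chr21:46097862-46098161, plus strand, 36 CG), TPM2 (chr9:35690007-35690306, minus strand, 24 CG), KITLG (chr12:88580422-88580721, minus strand, 34 CG) and CLDN7 (chr17:7263164-7263463, minus strand, 10 CG).
H19: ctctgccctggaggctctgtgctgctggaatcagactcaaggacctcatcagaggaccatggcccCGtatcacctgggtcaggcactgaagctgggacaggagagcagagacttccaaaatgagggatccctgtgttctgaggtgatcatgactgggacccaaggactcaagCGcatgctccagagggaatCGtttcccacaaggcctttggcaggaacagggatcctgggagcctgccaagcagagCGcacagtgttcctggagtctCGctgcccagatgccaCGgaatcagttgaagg
SPARC: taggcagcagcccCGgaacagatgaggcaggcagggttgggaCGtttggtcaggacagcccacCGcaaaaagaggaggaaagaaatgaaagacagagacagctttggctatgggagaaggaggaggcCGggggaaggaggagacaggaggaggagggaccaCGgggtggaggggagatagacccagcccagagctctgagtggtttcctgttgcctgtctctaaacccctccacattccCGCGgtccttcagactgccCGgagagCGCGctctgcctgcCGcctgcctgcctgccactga
COL6A2: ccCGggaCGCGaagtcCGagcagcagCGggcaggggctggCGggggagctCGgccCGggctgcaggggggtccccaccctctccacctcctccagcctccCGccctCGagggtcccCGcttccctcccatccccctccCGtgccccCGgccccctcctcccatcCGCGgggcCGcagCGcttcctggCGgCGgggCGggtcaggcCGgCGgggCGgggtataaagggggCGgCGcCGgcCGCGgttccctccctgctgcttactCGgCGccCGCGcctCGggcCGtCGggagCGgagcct
TPM2: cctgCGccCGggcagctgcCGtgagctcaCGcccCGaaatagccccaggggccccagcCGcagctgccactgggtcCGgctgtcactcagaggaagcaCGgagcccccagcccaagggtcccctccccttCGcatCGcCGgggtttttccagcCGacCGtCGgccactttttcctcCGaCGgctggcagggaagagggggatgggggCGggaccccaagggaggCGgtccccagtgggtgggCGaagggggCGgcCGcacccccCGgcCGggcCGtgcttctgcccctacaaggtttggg
KITLG: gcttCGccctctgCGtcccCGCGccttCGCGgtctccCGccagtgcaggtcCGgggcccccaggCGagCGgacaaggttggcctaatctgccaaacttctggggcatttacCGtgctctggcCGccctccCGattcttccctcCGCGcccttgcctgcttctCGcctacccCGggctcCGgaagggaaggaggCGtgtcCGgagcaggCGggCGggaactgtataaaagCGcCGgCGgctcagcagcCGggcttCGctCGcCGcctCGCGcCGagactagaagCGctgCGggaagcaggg
CLDN7: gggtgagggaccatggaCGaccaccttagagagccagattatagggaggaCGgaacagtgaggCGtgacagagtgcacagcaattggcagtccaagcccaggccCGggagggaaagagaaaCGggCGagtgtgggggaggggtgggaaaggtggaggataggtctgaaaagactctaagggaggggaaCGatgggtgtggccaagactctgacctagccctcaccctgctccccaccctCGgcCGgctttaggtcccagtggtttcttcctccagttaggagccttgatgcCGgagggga
Among all 27305 RefSeq windows of this kind the median was 14 CG dinucleotides (quartiles 3 and 28). COL6A2 and KITLG thus lay above the upper quartile, TPM2 lay between it and the median, and H19, SPARC and CLDN7 lay below the median. The letters AGGTCA, which form the core that RORA and related nuclear receptors read, were searched on both strands and stood in the CLDN7 window and in 13.9% of all windows. Windows were found for 10849 of the 14154 genes tested (76.6%). This is under 80%, so a comparison of CG or motif content between genes called higher and lower was void and is not given.

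Of the other 10 genes with the largest positive differences, 8 had at most 6.15 CPM in any SW480 vector library. PTGDS, which makes prostaglandin D2, had 181, 339 and 741 CPM in SW480 Tet2CD libraries, against 3.02, 3.85 and 6.15 CPM in SW480 vector libraries. In SW620 it stayed at 0.467, 0.498 and 1.02 CPM with Tet2CD, against 0.256, 0.486 and 1.58 CPM with vector. Its difference was 6.80 ± 1.14 (adjusted p = 3.6e-04). RENBP, which encodes renin-binding protein, had 19.9, 33.8 and 107 CPM in SW480 Tet2CD libraries, against 0, 0.406 and 1.17 CPM in SW480 vector libraries, and its difference was 6.77 ± 0.99 (adjusted p = 9.3e-05). CABP4, a calcium-binding protein gene, had 7.90, 12.2 and 16.8 CPM in SW480 Tet2CD libraries, against 0, 0.127 and 0.811 CPM in SW480 vector libraries. In SW620 its level was 8.92, 11.5 and 20.5 CPM with Tet2CD, against 6.90, 12.8 and 16.7 CPM with vector. The Tet2CD libraries of SW480 therefore reached the range that SW620 held with either construct. SLC38A3, an amino acid transporter gene, had 75 counts over the 6 SW480 Tet2CD libraries against 0 over the SW480 vector libraries, which is at least 31.7-fold higher when a group without counts is set to 3 counts over its 6 libraries. In SW620 SLC38A3 had 11.3, 20.7 and 24.8 CPM with Tet2CD, against 6.02, 18.1 and 25.2 CPM with vector, all above the SW480 Tet2CD libraries (2.53, 3.59 and 5.72 CPM). SLC22A31, a gene of the organic ion transporter family, had 48 counts against 0 in SW480, at least 20.3-fold higher by the same reckoning. CA12 (carbonic anhydrase 12) and ALPG (a germ cell alkaline phosphatase with near-identical relatives) had differences of 5.25 ± 0.52 and 5.17 ± 1.22, both called. IFITM1, SLC30A2 and LAMC3 completed the 12 genes named by size. IFITM1, an interferon-induced membrane protein gene, was not low, with 493, 737 and 1350.1 CPM in SW480 Tet2CD libraries, against 40.0, 47.0 and 64.2 CPM in SW480 vector libraries. SLC30A2, a zinc transporter gene, had 11.8, 19.7 and 26.5 CPM in SW480 Tet2CD libraries, against 0.811, 6.94 and 9.65 CPM in SW480 vector libraries. IFITM1 and SLC30A2 had 2 and 0 counts over the SW620 Tet2CD libraries and 6 and 7 over the SW620 vector libraries, so the SW620 side of their difference rests on few counts. In all, 20 genes had at most 3 counts over the 6 SW480 vector libraries and at least 1 CPM in every SW480 Tet2CD library, against 1 such gene in SW620.

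**Figure D2:**
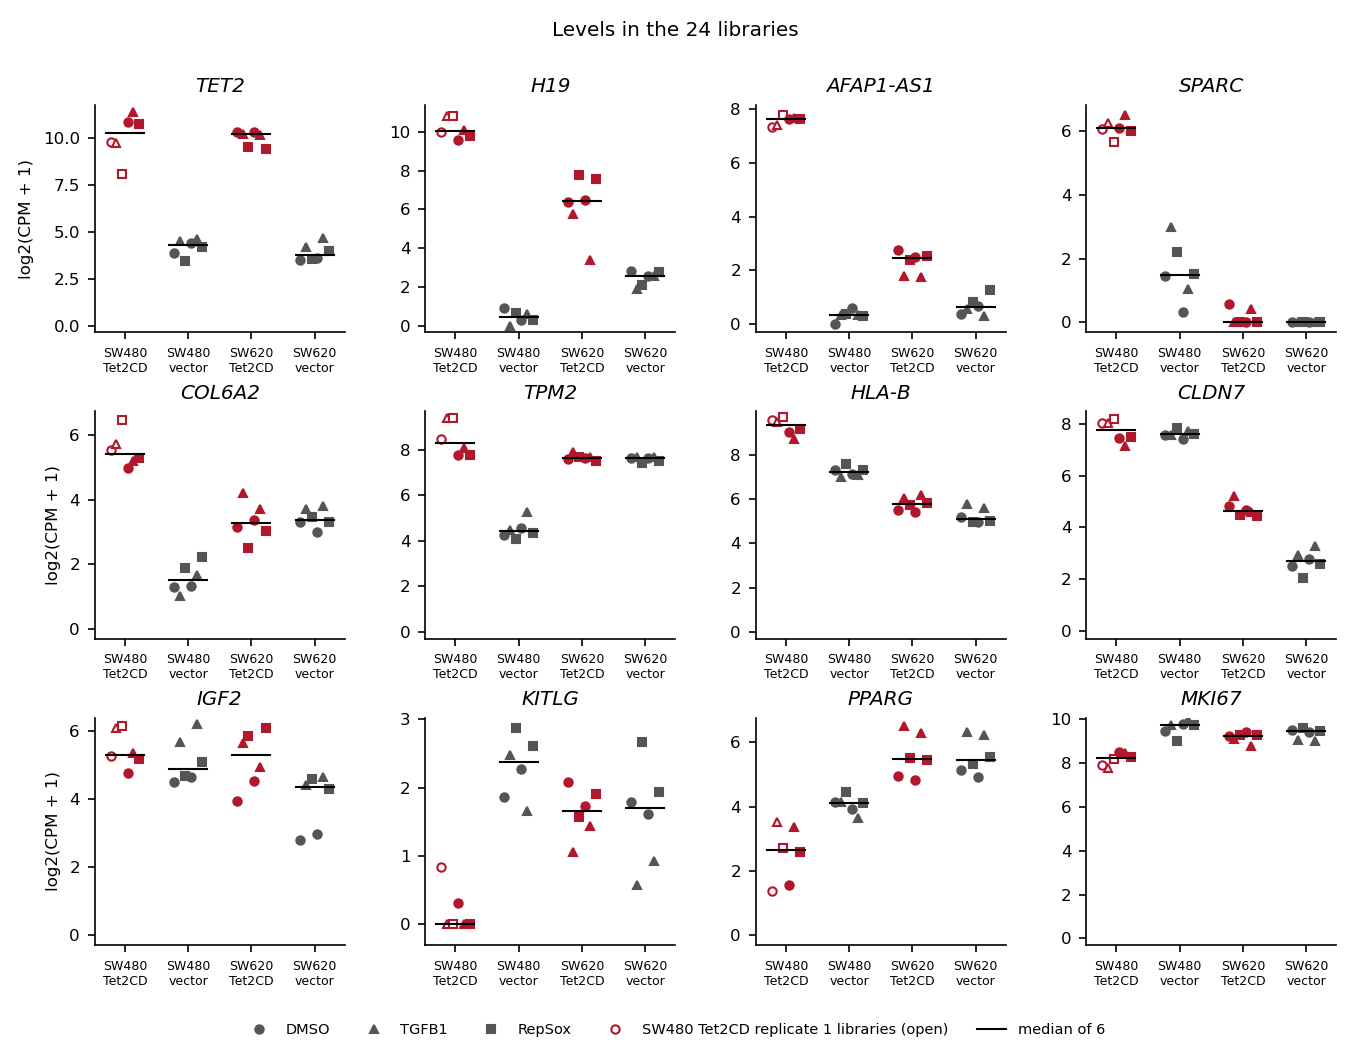
Level in each library as log2(CPM + 1) for 12 genes in SW480 Tet2CD, SW480 vector, SW620 Tet2CD and SW620 vector cells, with the median of 6 as a line, the treatment as the symbol and the 3 libraries that stood apart as open symbols. H19 lies between 758 and 1819 CPM in SW480 Tet2CD and at or under 0.878 CPM in SW480 vector libraries, and CLDN7 separates the constructs in SW620 only.

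The 12 largest negative differences were of genes that fell in SW480 with Tet2CD, most of them from a low level. NOS3 was the highest of them, with 11.2 to 42.7 CPM in SW480 vector libraries. KITLG, the ligand of the KIT receptor, had 0, 0 and 0.791 CPM in SW480 Tet2CD libraries, against 2.16, 4.21 and 6.33 CPM in SW480 vector libraries. These were 3 counts against 93, a ratio of 0.0409 with a 95% counting interval of 0.00829 to 0.123. In SW620 it had 1.09, 2.16 and 3.22 CPM with Tet2CD, against 0.492, 2.26 and 5.37 CPM with vector, with overlapping groups. The fitted difference was -4.26 ± 0.71, and its size depends on these few counts. CAPN6, a calpain family gene, had 0, 0.277 and 0.623 CPM in SW480 Tet2CD libraries, against 1.17, 2.03 and 4.65 CPM in SW480 vector libraries, and a difference of -3.69 ± 0.60 (adjusted p = 2.6e-04). B3GALT5, a galactosyltransferase gene, had 0.623, 1.29 and 2.37 CPM in SW480 Tet2CD libraries, against 4.83, 12 and 14.4 CPM in SW480 vector libraries. B3GALT5 in SW620 had 4.67, 13.1 and 19.7 CPM with Tet2CD, against 3.4, 11.2 and 16.7 CPM with vector, and the difference was -3.05 ± 0.34 (adjusted p = 4.4e-06). The other members of this set were LINC02827, ZFPM2, FLG, POMK, PDE2A, LINC02617, LINC00630, NOS3 and MUC16, with differences between -3.53 and -2.86. None of them was called in SW620, and MUC16 had 5 counts over SW620 Tet2CD and 2 over SW620 vector libraries. ZFPM2 (a cofactor of GATA factors) and POMK (a kinase that modifies dystroglycan) kept 7.19 to 13.0 CPM and 5.51 to 8.50 CPM in SW620 Tet2CD libraries and were close to 0 in most SW480 Tet2CD libraries.

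A few genes were called in SW620 without a call in SW480. CLDN7, a tight junction claudin of epithelial cells, had 142, 221 and 286 CPM in SW480 Tet2CD libraries, against 167, 191 and 227 CPM in SW480 vector libraries, with overlap. Its SW620 levels were 20.8, 23.5 and 35.5 CPM with Tet2CD, against 3.07, 5.41 and 8.78 CPM with vector, and these groups did not overlap. Its effect was 0.15 ± 0.15 in SW480 and 2.17 ± 0.20 in SW620, so that the difference was -2.02 ± 0.25 (adjusted p = 1.8e-05). FLNC, an actin cross-linker gene, had a difference of -1.17 ± 0.31. SLC38A7, an amino acid transporter gene, had one of -0.41 ± 0.15, and was no longer called without the 3 libraries that stood apart (-0.37). IGF2, the imprinted growth factor gene that shares control elements with H19, had 25.9, 38.1 and 69.1 CPM in SW480 Tet2CD libraries, against 21.4, 28.7 and 72.4 CPM in SW480 vector libraries. The values in SW620 were 14.1, 39.2 and 66.8 CPM with Tet2CD, against 5.88, 19.3 and 23.9 CPM with vector. Its effect was 0.33 in SW480 and 1.29 in SW620, with a difference of -0.95 ± 0.31 (adjusted p = 0.029). The differences of these 4 genes were all negative, and no gene named by that rule had a positive one.

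In 7 genes the 2 lines were called in opposite directions, always lower in SW480 and higher in SW620. APOBEC3G, a cytidine deaminase gene of antiviral defence with close relatives, had 129, 145 and 154 CPM in SW480 Tet2CD libraries, against 137, 178 and 224 CPM in SW480 vector libraries. In SW620 it had 19.6, 21.0 and 34.1 CPM with Tet2CD, against 9.20, 12.4 and 17.3 CPM with vector. The SW620 libraries separated by construct and those of SW480 overlapped. Its effect was -0.30 ± 0.11 in SW480 and 0.89 ± 0.13 in SW620. CHST11, which sulphates chondroitin, had 168, 223 and 274 CPM in SW480 Tet2CD libraries, against 261, 306 and 354 CPM in SW480 vector libraries, and in SW620 35.0, 40.0 and 49.3 CPM with Tet2CD, against 19.6, 24.1 and 32.9 CPM with vector. Its difference was -1.18 ± 0.18 (adjusted p = 1.1e-04). MYBBP1A, a nucleolar protein gene, had effects of -0.65 in SW480 and 0.50 in SW620, with a difference of -1.15 ± 0.16. SLC52A3, a riboflavin transporter gene, had -0.49 and 0.78, and FBN3, a fibrillin gene, had -0.74 and 1.39. FASN (fatty acid synthase) was lower in SW480 by the test (-0.38 ± 0.11) and higher in SW620 (0.55 ± 0.12).

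A further set of genes moved the same way in both lines. Of the 44 genes called higher in SW620, 33 (75%) were called higher in SW480 and 7 (15.9%) lower, beside the 31.3% and 27.7% of all genes. Of the 7 called lower in SW620, 3 were called lower in SW480. ATF5, a transcription factor gene of the stress response, had 45.5, 68.5 and 107 CPM in SW480 Tet2CD libraries, against 21.6, 29.9 and 35.1 CPM in SW480 vector libraries. ATF5 in SW620 had 16.5, 22.5 and 34.7 CPM with Tet2CD, against 7.41, 9.03 and 12.4 CPM with vector. The groups did not overlap in either line, and the effects of 1.35 ± 0.14 and 1.27 ± 0.15 left a difference of 0.08 ± 0.21 (adjusted p = 0.79). SLC44A4, a choline transporter family gene, had effects of 2.87 in SW480 and 2.67 in SW620. COL2A1, a fibrillar collagen gene, had 1.96 and 1.40. RAB34, a small GTPase gene, had 27.7, 48.5 and 82.2 CPM in SW480 Tet2CD libraries, against 0, 0.127 and 0.603 CPM in SW480 vector libraries, and 91 counts over SW620 Tet2CD libraries against 3 over SW620 vector libraries, a ratio of 28.9 with a 95% counting interval of 9.59 to 143. GALNT10 and MDGA1 were called lower in both lines, with effects of -0.49 and -0.62 in SW480 and -0.72 and -1.23 in SW620. The differences of these genes were not called, which does not show that their effects were equal. RAB34 was called higher in the difference with voom (3.30, adjusted p = 0.0011), with DESeq2 and in the libraries numbered 33 to 44 alone (6.41, adjusted p = 0.034), and MDGA1 with voom (0.74, adjusted p = 0.042).

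Gene lists were described by the number of members called in the difference, beside 14.8% higher and 13.9% lower among all genes and a median difference of 0.02. Members low in all groups were not tested, and a member could pass the filter through a single group in which it was high. Calls among matrix genes were mostly higher. Of 24 matrix and matricellular genes tested, 10 were called higher and 2 lower, with a median of 0.62, and the counts were 9 and 2 without the 3 libraries that stood apart. COL6A2, an alpha chain of type VI collagen, had 30.8, 41.6 and 87.2 CPM in SW480 Tet2CD libraries, against 1.02, 1.85 and 3.72 CPM in SW480 vector libraries. Its SW620 levels were 4.71, 8.64 and 17.5 CPM with Tet2CD, against 7.04, 9.47 and 13.1 CPM with vector. The SW480 groups were fully separate, those of SW620 overlapped, and the difference was 4.55 ± 0.35 (adjusted p = 3.4e-08). LAMC3, a laminin chain gene, had a difference of 5.01 ± 0.42, and FBLN1, which encodes fibulin-1 of the extracellular matrix, one of 3.0 ± 0.22. FBLN1 had 107, 156 and 256 CPM in SW480 Tet2CD libraries, against 13.2, 17.4 and 20.2 CPM in SW480 vector libraries. LAMA3, a laminin chain of epithelial basement membranes, was called lower (-1.20 ± 0.27). Of the 10 fibroblast markers, whose sum was given above, 3 passed the filter. FBLN1 and the collagen gene COL1A1 were called higher in the difference, COL1A1 with 14.2 to 22.2 CPM in SW480 Tet2CD libraries, against 5.79 to 11.7 CPM with vector. LUM, the third, was at most 0.394 CPM in SW480 and 7.48 to 16.6 CPM in SW620 libraries, and was not called. PDGFRA, DCN and FAP stayed at or near 0 in all libraries. The part of such cells in the result was not tested.

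SPARC, a matricellular glycoprotein gene that the study singled out from RNA-seq of Tet2CD and vector cells of these lines, was called higher in SW480. Whether these libraries were used for that choice is not stated, so its direction may not be independent evidence. It had 49.8, 67.1 and 88.9 CPM in SW480 Tet2CD libraries, against 0.255, 1.81 and 6.88 CPM in SW480 vector libraries. In SW620 there were 3 counts over the Tet2CD libraries and 0 over the vector libraries, so that both groups had at most 3 counts and no fold was computed. The SW480 effect was 4.76 ± 0.35 (adjusted p = 7.4e-08). The difference between lines could not be estimated with useful precision by edgeR and was not called (adjusted p = 0.84), whereas limma voom (4.69, adjusted p = 6.1e-05) and DESeq2 called it higher. RORA, a nuclear receptor gene also singled out, had 26.8, 41.5 and 63.0 CPM in SW480 Tet2CD libraries, against 22.3, 35.7 and 69.5 CPM in SW480 vector libraries. The values in SW620 were 3.22, 4.44 and 15.8 CPM with Tet2CD, against 1.17, 4.05 and 18.0 CPM with vector. Both pairs of groups overlapped, and the difference was 0.13 ± 0.36 (adjusted p = 0.80). CTNNB1, which encodes beta-catenin, had an effect of -0.50 ± 0.14 in SW480 and -0.00 ± 0.14 in SW620, and the difference of -0.50 ± 0.19 was not called (adjusted p = 0.056). It was called lower with voom (-0.38, adjusted p = 0.011), in the libraries numbered 21 to 32 alone (-0.92, adjusted p = 0.0034), with DESeq2, without the filter and with a term for the library set, and was -0.22 without the 3 libraries that stood apart (adjusted p = 0.14).

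Cytoskeletal and junction genes went in both directions. Of 21 actin-linked genes, 7 were called higher and 6 lower (6 and 6 without the 3 libraries). TPM2, a tropomyosin gene, had 213, 312 and 679 CPM in SW480 Tet2CD libraries, against 16, 20.2 and 37.3 CPM in SW480 vector libraries. In SW620 it had 178, 199 and 236 CPM with Tet2CD, against 168, 198 and 204 CPM with vector. The SW480 Tet2CD libraries thus reached or passed the SW620 range, and the difference was 4.08 ± 0.35 (adjusted p = 1.2e-07). CNN3, a calponin gene, differed by 3.76 ± 0.41 and TPM1 by 1.13 ± 0.15. FLNA, which encodes filamin A, had 927, 1031 and 1175 CPM in SW480 Tet2CD libraries, against 1382, 1569.5 and 1827 CPM in SW480 vector libraries, and it and VCL (vinculin) were called lower, with differences of -0.63 ± 0.13 and -0.99 ± 0.25. Of 27 epithelial junction genes, 9 were called higher and 6 lower, the same counts as without the 3 libraries. CLDN3 and SPINT1 were among those called higher, with differences of 1.82 ± 0.32 and 1.16 ± 0.22. The splicing regulator gene ESRP2 and the desmosomal cadherin gene DSG2 were called lower, with -0.84 ± 0.15 and -1.58 ± 0.32. CDH1, which encodes E-cadherin, had 95.3, 116 and 195 CPM in SW480 Tet2CD libraries, against 63.2, 91.6 and 114 CPM in SW480 vector libraries. CDH1 in SW620 had 225, 244 and 391 CPM with Tet2CD, against 237, 326 and 465 CPM with vector. Both pairs overlapped, and the difference was 0.77 ± 0.23 (adjusted p = 0.019). EPCAM was called higher too (0.53 ± 0.14). Of 11 mesenchymal genes and regulators of the epithelial-mesenchymal transition, 2 were called higher and 0 lower (1 each way of 13 without the 3 libraries). VIM (vimentin) was 1 of them (0.47 ± 0.14), with neither line called on its own, and was not called without the 3 libraries (0.30). Among 13 keratins 4 were called higher and 2 lower, with KRT81 at 2.57 ± 0.40 and KRT23 at -1.53 ± 0.15. KRT81 is near-identical to KRT86, so its share of reads is uncertain.

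Calls among interferon-stimulated and antigen presentation genes were mostly higher. Of 32 interferon-stimulated genes tested, 12 were called higher and 1 lower, with a median of 0.60 (10 and 1 of 33 without the 3 libraries, median 0.46). MX1, an antiviral GTPase gene, had 47.1, 62.5 and 73.2 CPM in SW480 Tet2CD libraries, against 10.7, 14.6 and 20.5 CPM in SW480 vector libraries. Its SW620 levels were 6.55, 8.47 and 9.81 CPM with Tet2CD, against 5.31, 6.33 and 11.1 CPM with vector, and the difference was 1.76 ± 0.21 (adjusted p = 8.8e-06). IFITM3, whose product blocks virus entry and which has close relatives, and IRF7, a transcription factor gene, had differences of 2.07 ± 0.36 and 1.53 ± 0.27. Of 17 antigen presentation genes, 10 were called higher and 1 lower, with a median of 0.89. Without the 3 libraries 7 were called higher and 1 lower, with a median of 0.37. HLA-B, which encodes a class I heavy chain, had 415, 641 and 833 CPM in SW480 Tet2CD libraries, against 127, 148 and 189 CPM in SW480 vector libraries. The values in SW620 were 41.1, 53.1 and 70.8 CPM with Tet2CD, against 29.9, 33.4 and 54.3 CPM with vector. The groups were separate in SW480 and overlapped in SW620, and the difference was 1.55 ± 0.19 (adjusted p = 1.2e-05). HLA-C and HLA-F had 1.32 ± 0.16 and 1.83 ± 0.23. Class I genes share sequence, so that the split of reads among them is uncertain.

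The same held for intestinal genes by their counts. Of 18 intestinal differentiation genes tested, 9 were called higher and 1 lower, with a median of 1.16 (9 and 1 of 23 without the 3 libraries, median 0.90). The list held 39 genes, and those low in all groups were not tested. ALPG, with 20.7 to 51.7 CPM in SW480 Tet2CD libraries and at most 0.930 CPM in all others, passed the filter through that group alone. The counts and medians are thus a description of the members that passed. KLF5 had 32.8 to 92.3 CPM in SW480 Tet2CD libraries, against 82.3 to 150 CPM with vector. CDX2, a homeobox factor of intestinal identity, had 146, 176 and 211 CPM in SW480 Tet2CD libraries, against 32.3, 65.8 and 76.6 CPM in SW480 vector libraries. In SW620 it had 7.26, 15.3 and 30.6 CPM with Tet2CD, against 9.91, 12.8 and 26.3 CPM with vector. The difference was 1.58 ± 0.32 (adjusted p = 0.0014). HNF4A, a nuclear receptor of the gut and liver, had 42.7, 53.6 and 78.4 CPM in SW480 Tet2CD libraries, against 26.4, 27.9 and 35.7 CPM in SW480 vector libraries, and its difference was 1.09 ± 0.14. The membrane mucin gene MUC13 and the microvillus gene VIL1 had 1.35 ± 0.21 and 0.85 ± 0.17. Of 23 Notch pathway genes, 8 were called higher and 3 lower, with a median of 0.81 (7 and 3 without the 3 libraries). The receptor genes NOTCH1 and NOTCH2 were called lower, with -1.45 ± 0.19 and -1.38 ± 0.35, whereas HES6, a HES family factor, and LFNG, a glycosyltransferase that modifies Notch receptors, were called higher, with 2.17 ± 0.30 and 1.74 ± 0.29.

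**Figure D3:**
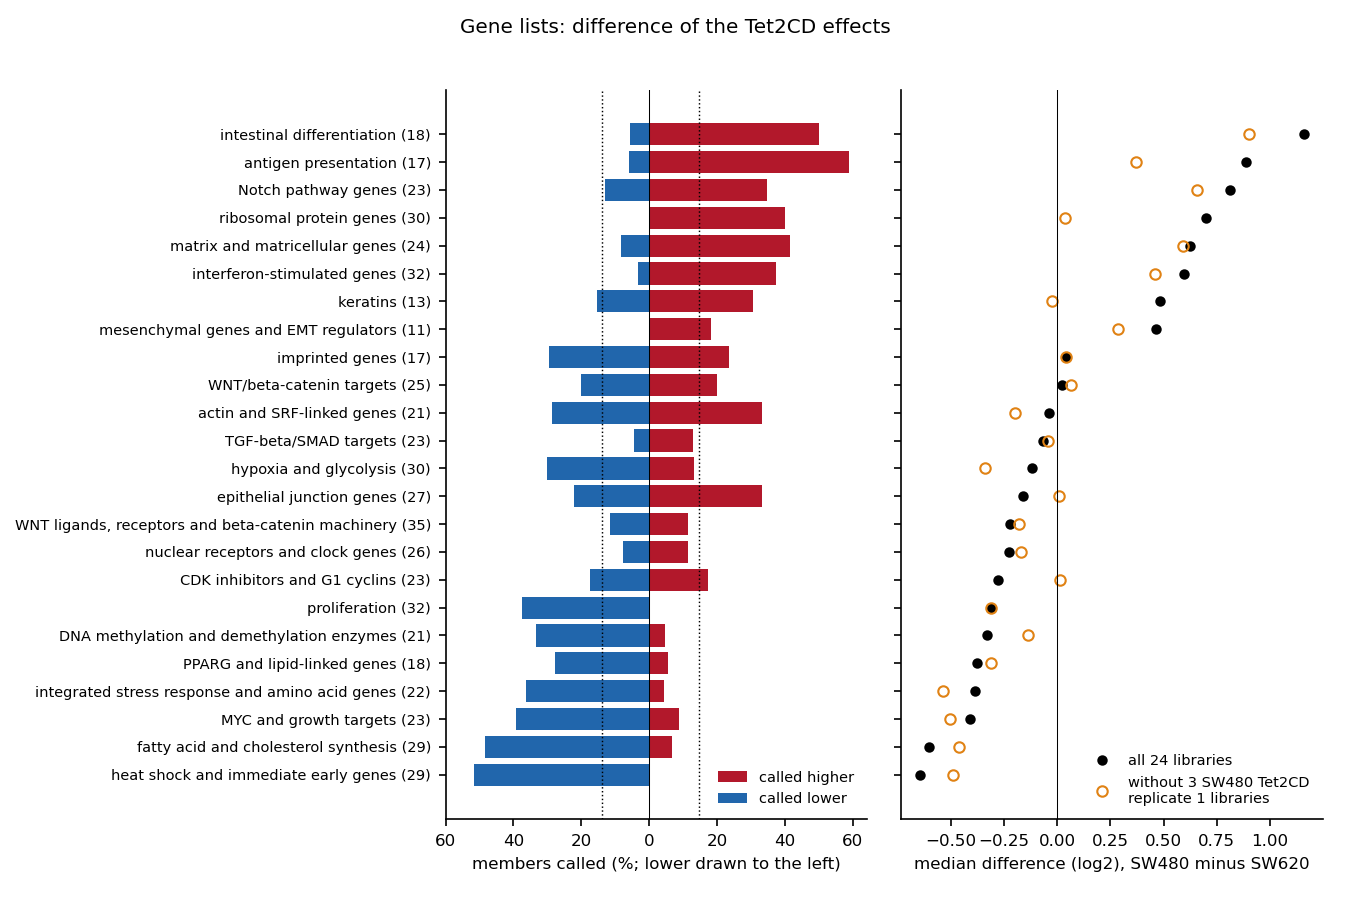
Left, percent of the tested members of each gene list (number in brackets) called lower (drawn to the left) and higher (to the right) in the difference, with dotted lines at the percentages of all genes. Right, median difference (log2) with all 24 libraries (filled) and without the 3 that stood apart (open). Intestinal, antigen presentation and Notch lists have medians of 1.16, 0.89 and 0.81, and the heat shock and immediate early list has a median of -0.64.

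Calls among genes of growth, lipid synthesis and stress were mostly lower. Of 32 proliferation genes, 0 were called higher and 12 lower by edgeR's quasi-likelihood test, with a median of -0.31, and the same counts were found without the 3 libraries. MKI67, the gene of the Ki-67 antigen, had 218, 299 and 362 CPM in SW480 Tet2CD libraries, against 512, 859 and 993 CPM in SW480 vector libraries. MKI67 in SW620 had 434, 611 and 678 CPM with Tet2CD, against 509.6, 702 and 789 CPM with vector. The difference was -1.26 ± 0.20 (adjusted p = 1.7e-04). MCM2, a subunit of the replicative helicase, had -0.87 ± 0.17. Of 29 genes of fatty acid and cholesterol synthesis, 2 were called higher and 14 lower, with a median of -0.60 (2 and 14 without the 3 libraries, median -0.46). FASN had 483, 547 and 619.8 CPM in SW480 Tet2CD libraries, against 567, 662 and 1004 CPM in SW480 vector libraries. Its SW620 levels were 467, 524 and 559.9 CPM with Tet2CD, against 256, 380.2 and 447 CPM with vector, and the difference was -0.93 ± 0.16 (adjusted p = 4.9e-04). ACACA (acetyl-CoA carboxylase) and SCD (stearoyl-CoA desaturase) had -1.01 ± 0.15 and -1.10 ± 0.20. SREBF1, a master regulator of these enzymes, was called higher (0.38 ± 0.13), but its difference was -0.01 once a GC offset was fitted. Of 18 PPARG and lipid-linked genes, 1 was called higher and 5 lower, PPARD with -0.98 ± 0.18.

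Of 23 MYC and growth targets, 2 were called higher and 9 lower (3 and 13 of 24 without the 3 libraries). MYC itself had 103, 169 and 208 CPM in SW480 Tet2CD libraries, against 299, 310.0 and 573 CPM in SW480 vector libraries, without overlap. The values in SW620 were 362, 483 and 731 CPM with Tet2CD, against 444, 454 and 594 CPM with vector, with overlap, and the difference was -1.23 ± 0.25 (adjusted p = 0.0016). CAD, the first enzyme of pyrimidine synthesis, and NOLC1, a nucleolar factor gene, had -1.34 ± 0.14 and -1.26 ± 0.20. Of 30 hypoxia and glycolysis genes, 4 were called higher and 9 lower, with a median of -0.12 (3 and 15 without the 3 libraries, median -0.34), PFKFB3 with -1.52 ± 0.28. Of 22 genes of the integrated stress response and amino acid supply, 1 was called higher and 8 lower (1 and 11 without the 3 libraries), DDIT4 (an inhibitor of mTORC1 signalling) with -1.26 ± 0.17. Of 29 heat shock and immediate early genes, 0 were called higher and 15 lower, with a median of -0.64 (0 and 17 without the 3 libraries, median -0.49). HSP90AA1, a chaperone gene, had -0.75 ± 0.14 and FOSL2, an AP-1 subunit gene, -1.24 ± 0.20. EGR1, an early response factor gene, was called lower in both lines, by -1.68 in SW480 and -0.67 in SW620, with a difference of -1.01 ± 0.20.

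Calls among WNT genes went in both directions. Of 25 WNT/beta-catenin targets, 5 were called higher and 5 lower (3 and 6 without the 3 libraries). NOTUM, a secreted inhibitor of WNT ligands, had 464, 622 and 850.5 CPM in SW480 Tet2CD libraries, against 134, 199.9 and 275 CPM in SW480 vector libraries. In SW620 it had 359.6, 412 and 721 CPM with Tet2CD, against 363, 406 and 790.4 CPM with vector, and the difference was 1.68 ± 0.19 (adjusted p = 6.1e-06). ASCL2, a factor of intestinal stem cells, was called higher (1.5 ± 0.43) and was not called without the 3 libraries (0.51). PROX1 was called lower (-1.10 ± 0.33). Of 35 genes of WNT ligands, receptors and signalling, 4 were called each way (3 each way without the 3 libraries), with the receptor gene FZD10 at 3.24 ± 0.38. Of 21 genes of DNA methylation and demethylation, 1 was called higher and 7 lower (2 and 6 without the 3 libraries). TET3, a paralogue of TET2, and OGT, a glycosyltransferase that binds TET proteins, were called lower with -1.35 ± 0.35 and -1.14 ± 0.29. Of 17 imprinted genes tested, 4 were called higher and 5 lower, the same counts as without the 3 libraries. Besides H19, the cell cycle inhibitor gene CDKN1C and its neighbour SLC22A18 on chromosome 11 were called higher, with 1.19 ± 0.29 and 1.81 ± 0.30. CDKN1C was not called in the libraries numbered 33 to 44 alone (0.69). IGF2, PLAGL1 and ZDBF2 were among those called lower. PLAGL1 had 1.87 to 32.4 CPM in SW480 Tet2CD libraries, against 22.0 to 43.0 with vector, and ZDBF2 had 1.25 to 20.1 CPM, against 18.4 to 44.8.

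In 3 further lists the balance of calls changed without the 3 libraries. Of 23 TGF-beta/SMAD targets, 3 were called higher and 1 lower (3 and 4 of 25 without them). Of 26 nuclear receptor and clock genes, 3 were called higher and 2 lower (1 and 3 without them). Of 23 CDK inhibitors and G1 cyclins, 4 were called each way (3 and 6 without them). Among the marker genes tested, 4 of 7 for colon epithelium and 2 of 3 for fibroblasts were called higher and 0 lower. Of 3 for endothelium, 1 was called higher and 0 lower. Of 3 for blood cells, CD4 was called higher and LYZ lower. Of the 38 germline and cancer-testis genes written down, 2 passed the filter on low counts, and neither was called in the difference by edgeR's quasi-likelihood test. One of them, PNMA5, had 154 counts over SW480 Tet2CD and 0 over SW480 vector libraries (at least 65.2-fold higher), and 0 counts over each group of SW620 libraries, so that a difference could not be estimated. Of 30 ribosomal protein genes, 12 were called higher and 0 lower, with a median of 0.70, and without the 3 libraries 0 were called either way, with a median of 0.04. RPLP2, which encodes a stalk protein of the large ribosomal subunit, had a difference of 1.52 ± 0.44 with all libraries and 0.26 without the 3. That positive difference therefore came with these 3 libraries.

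The difference was of the same sign with DMSO, TGFB1 and RepSox for 2073 of the 2093 genes called higher and for 1952 of the 1966 called lower, beside 64.3% of all genes. These genes were called on the average over the 3 treatments, which favours equal signs, so the counts are a description. With 2 libraries a group, 74 genes were called with DMSO alone (0.523%), 657 with TGFB1 alone (4.64%) and 71 with RepSox alone (0.502%). Leaving out 1 SW480 Tet2CD library with RepSox (replicate 2) raised the count with RepSox to 4232, leaving out the one with TGFB1 (replicate 2) raised the count with TGFB1 to 2637, and leaving out SW480 vector with DMSO (replicate 2) took the count with DMSO to 6. The counts within a treatment thus turned on single libraries. A dependence of the difference on treatment was called for 1 gene (0.00707%), while 402 genes had an unadjusted p under 0.05. This gene was NEURL1B, which encodes a ubiquitin ligase of Notch ligands. Its difference was 0.84 ± 0.28 with DMSO, 3.79 ± 0.30 with TGFB1, 0.60 ± 0.31 with RepSox (adjusted p for dependence = 0.0134). This call was lost on leaving out any of 6 libraries, namely SW480 Tet2CD with TGFB1 (replicate 2), SW480 vector with TGFB1 (replicates 1 and 2), SW620 Tet2CD with TGFB1 (replicate 2) or RepSox (replicate 1), and SW620 vector with TGFB1 (replicate 2). PPARG, a nuclear receptor of fat storage and of the colon epithelium, had 1.58, 5.29 and 10.5 CPM in SW480 Tet2CD libraries, against 11.6, 16.5 and 20.8 CPM in SW480 vector libraries. PPARG in SW620 had 27.8, 43.5 and 89.8 CPM with Tet2CD, against 29.3, 42.5 and 79.1 CPM with vector. Its difference was -2.93 ± 0.34 with DMSO, -0.63 ± 0.28 with TGFB1, -1.86 ± 0.31 with RepSox, of the same sign throughout, and -1.59 ± 0.31 over all treatments (adjusted p = 0.0012), and a dependence on treatment was not called.

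**Figure D4:**
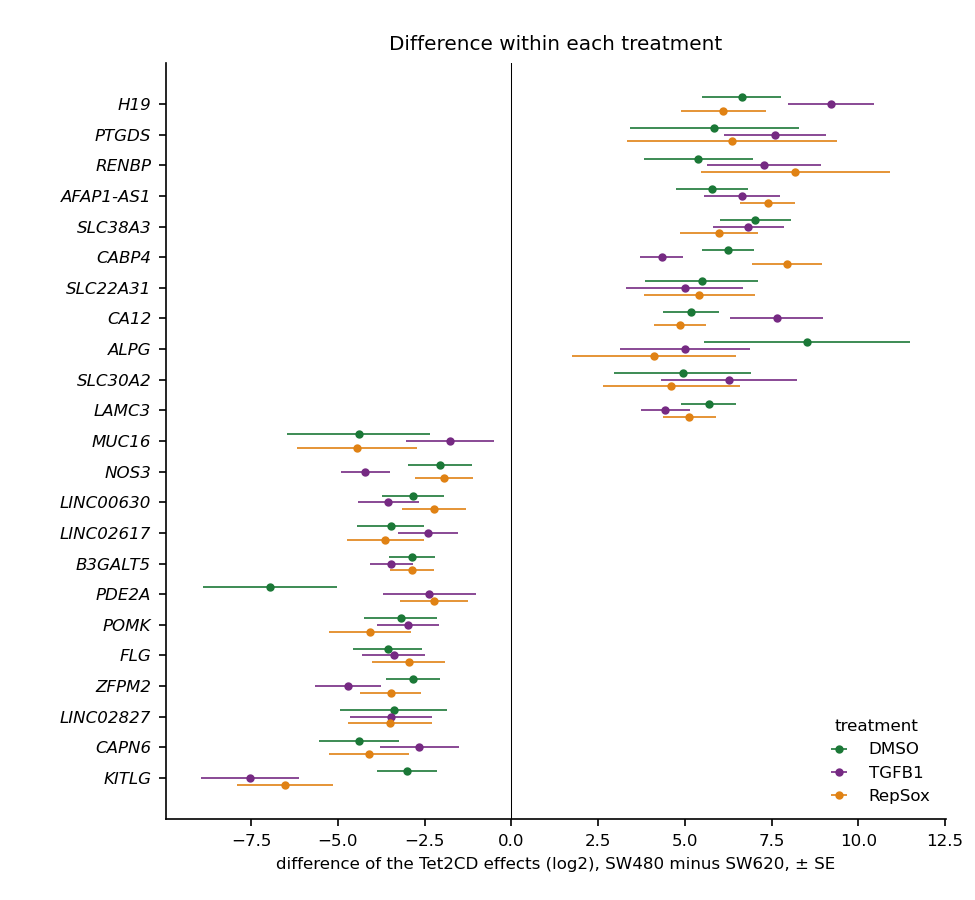
Difference between lines (log2, with bars of 1 SE, 2 libraries a group) with DMSO, TGFB1 and RepSox for 23 genes named by size. The 3 values of a gene lie on the same side of 0 for all 23 genes, which were chosen by their average over the treatments, and their bars are wide. IFITM1, whose SE could not be estimated with TGFB1, is not drawn.

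The difference also varied with base composition. Across genes, GC content and the Tet2CD effect were correlated in both lines (Pearson's r = 0.373 in SW480 and 0.293 in SW620), and the difference between lines had r = 0.284 with GC, as a description. Without the 3 libraries that stood apart, in which the counted genes had the highest GC content, that r was 0.099. In 5 equal groups of the tested genes by GC content, from low to high, the median difference was -0.23, -0.16, -0.03, 0.19 and 0.42 with all libraries, and -0.03, -0.07, -0.06, 0.01 and 0.09 without the 3. The trend with GC thus came mostly with these libraries. The share called higher was 5.32% in the group of lowest GC and 28.3% in that of highest GC, and the shares called lower were 14.2% and 7.02%. After an offset for GC was fitted in each library, the 5 medians lay between -0.0033 and 0.0324, and 4363 genes were called (2055 higher, 2308 lower), of which 3373 were called in the same direction without the offset. Of the genes named, H19 kept a difference of 6.73, TPM2 3.91, HLA-B 1.25, CDX2 1.39 and MKI67 -1.17 under the offset. Some lists changed under the offset. Of the matrix genes 8 were called higher and 3 lower, with a median of 0.30, of the epithelial junction genes 6 each way, of the actin-linked genes 6 and 8, of the Notch pathway genes 6 and 4, of the WNT/beta-catenin targets 3 and 6, of the WNT signalling genes 2 and 6, of the hypoxia and glycolysis genes 3 and 12, of the TGF-beta/SMAD targets 3 and 6, and of the nuclear receptor and clock genes 1 and 6. The part that base composition of RNA or library preparation had in these values was not tested otherwise. Medians by chromosome moved with the offset to different extents. The genes of chromosome 19 had a median difference of 0.31, which was 0.08 with the offset, and those of chromosome 21 had 0.22, which was 0.18 with the offset. Of protein-coding genes 14.9% were called higher and 14.7% lower, and of long noncoding RNAs 14.5% and 6.69%.

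**Figure D5:**
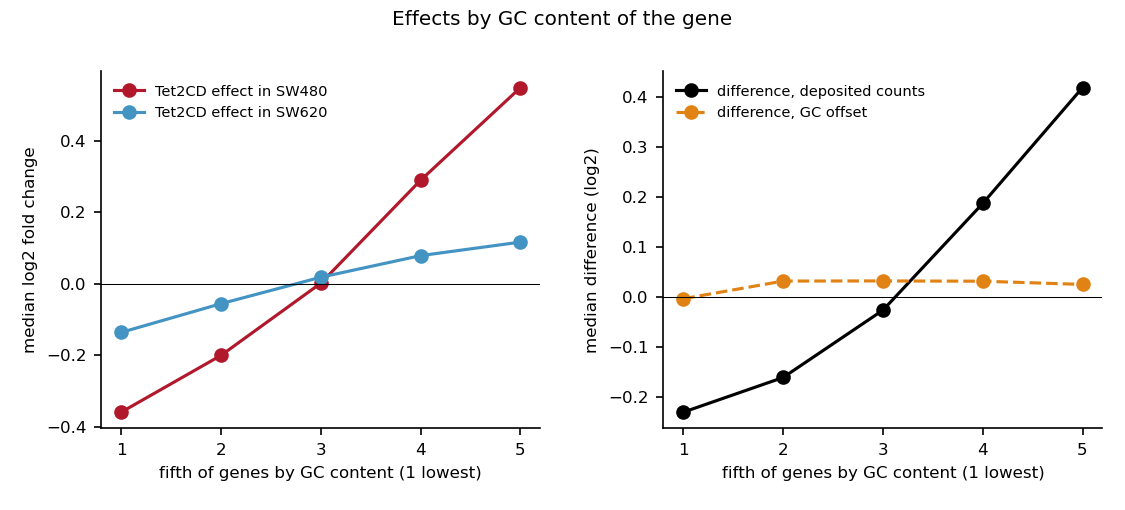
Median Tet2CD effect in SW480 and SW620 (left, log2 fold change) and median difference between lines (right, log2) in 5 equal groups of the tested genes from lowest to highest GC content (horizontal axis). The difference runs between -0.23 and 0.42 with the deposited counts and between -0.0033 and 0.0324 with the GC offset.

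The libraries fall into 2 sets by number, 21 to 32 and 33 to 44, each with 1 library of all 12 groups, and the 3 libraries that stood apart were all in the first. The difference was called for 5834 genes in the set numbered 21 to 32 alone and for 1990 in the set numbered 33 to 44 alone. Of these, 1533 genes were called in both sets in the same direction (570 higher, 963 lower), which is 26.3% of the calls in the first set and 77.0% of those in the second, and 6 were called in opposite directions. Of the 1977 genes called in the set 33 to 44 that were also measured in the other set, 1875 (94.8%) had the same sign there, beside 72.6% of all genes. The sets share no library, but the labels do not say whether they came from separate cultures or infections. The difference in the 2 sets was correlated across 13947 genes with r = 0.602, as a description across genes, which are not independent replicates.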

How the data were processed

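RNA-seq libraries of 2 cell lines were read from 1 gene table each, 24 in all. Per the authors' methods, RNA was taken up in TRIzol, libraries were made with TruSeq reagents and sequenced on a NextSeq 500, and reads were checked with FastQC, trimmed with Trimmomatic, quantified by RSEM using bowtie2 and normalized for GC content, and the submitters' processing notes list Bowtie, RSEM and the mouse build mm10, although all identifiers are human. How the GC normalization entered the tables was not stated. The authors deposited expected counts per gene, which are RSEM's estimates, split between genes that share reads, and need not be whole. The TPM and FPKM columns were not used.

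Expected counts were rounded and tested with edgeR 4.0.16 (R 4.3.3), by a quasi-likelihood test with TMM scaling and the filterByExpr filter. The model held a mean for each line and treatment (6 terms) and a Tet2CD effect for each line (2 terms), with 16 residual degrees of freedom, and p-values were adjusted by Benjamini-Hochberg over all 14154 genes with a threshold of 0.05. A model with 12 group means gave the values within a treatment. The common biological coefficient of variation was 19.4%. CPM were computed with TMM-scaled library sizes (factors 0.7525 to 1.073). SE were taken from the F statistic. The procedure was tested on simulated counts in which a gene had the same spread in all groups and no libraries stood apart. The simulation therefore does not show how often calls are false with the wider spread of the SW480 Tet2CD libraries.

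Symbols and positions came from GENCODE release 29 on GRCh38, matched by identifier for 32777 genes (98.2%), and promoter sequences from RefSeq. Groups came from the labels. The labels carry no replicate numbers, so those used here (1 and 2, by accession) name libraries and pair nothing. Separate cultures are not stated, and the p-values then reflect only how these libraries vary, which may be technical. All pairs of a group differed by more than sampling noise. Totals of 2146123 to 4410567 counts limit the precision for low genes. Intervals and floors of 3 counts cover counting error only.

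Members and lists were chosen with earlier results of these data known. The genes named were the 12 largest differences in each direction among called genes with separate libraries in at least 1 line and a mean log2 CPM of at least 1, up to 5 in each direction called in opposite ways, in SW620 only, or in both lines the same way, up to 3 each way from each of 30 gene lists, those with the smallest p for dependence on treatment, and TET2, RORA, SPARC, CDH1, CTNNB1, H19, AFAP1-AS1 and PPARG. AFAP1 and PNMA5 were chosen after their values were seen. Alternatives were DESeq2 1.42.0, limma 3.58.1 with voom, other scaling, no filter, a term for the library set, each set or treatment alone, a GC offset, and libraries left out. The lists' counts under 3 of these, and the GC offset without the 3 SW480 libraries, were added after seeing the data.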

Additional observations from a re-analysis of the deposited data

Results flagged for a closer look

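The mean GC content of counted genes in the SW480 vector library with TGFB1 replicate 1 was 49.63%, farther from the other 5 vector libraries of that line than Dixon's limit for 6 samples allows, which chance exceeds in about 1 in 20 groups.

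The Tet2CD effect differed between SW480 and SW620 by the test of the difference itself for 4059 genes. Among those named for it, the differences were 7.24 for H19, 6.68 for AFAP1-AS1, 0.77 for CDH1 and -1.59 for PPARG. The 5 genes named for calls in opposite directions in the 2 lines were MYBBP1A (-1.15), APOBEC3G (-1.2), CHST11 (-1.18), SLC52A3 (-1.27) and FBN3 (-2.14). The difference depended on treatment for NEURL1B (adjusted p = 0.0134, edgeR's quasi-likelihood test).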

How the results depend on the processing

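The count of 4059 genes called in the difference stayed within 1.5 times under RLE scaling, DESeq2 (4779), voom, no filter, the GC offset (4363) and a term for the library set (4706), and was 1990 with the libraries numbered 33 to 44 alone, 103 with DMSO libraries alone, 43 with TGFB1 libraries alone and 0 with RepSox libraries alone (1421 genes at an unadjusted p under 0.05, edgeR). In SW480 the count was 5041 with the set 33 to 44 alone and 2980, 1913 and 211 with DMSO, TGFB1 and RepSox libraries alone. In SW620 it was 135 with DESeq2, 872 with voom, 135 without the filter, 16 and 19 in the sets 21 to 32 and 33 to 44, 490 without the 3 SW480 libraries, 371 without them and with the GC offset, and 2, 1 and 1 with 1 treatment alone. With DMSO, TGFB1 and RepSox, the difference within a treatment was called for 434, 1282 and 1061 genes without the filter and for 302, 1468 and 315 without the 3 libraries, and its dependence on treatment for 54 genes without the filter. Why these counts moved was not tested. The single sets and treatments held fewer libraries, but the set 21 to 32 alone, with as many libraries as the set 33 to 44, gave 5834 genes in the difference, more than all 24.

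Leaving out 1 library at a time gave 3004 to 5588 genes in the difference, 7236 to 8880 in SW480, 34 to 68 in SW620, 6 to 124 with DMSO, 195 to 2637 with TGFB1, 16 to 4232 with RepSox and 0 to 3 for dependence on treatment. No replicate block follows from the labels, and the term for the library set, used as a pairing, moved the counts to 4706, 8534 in SW480 and 55 in SW620.

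TET2 was called in opposite directions, lower in the set 21 to 32 (-1.03) and higher without the 3 libraries (0.68), and was at -0.0722 with the set term and -0.59 with DMSO, not called. The other signs that turned were of genes not called with all libraries, and of SREBF1. ATF5 was at -0.10 with voom, -0.0049 in the set 21 to 32, -0.21 without the 3 libraries, -0.23 with the GC offset, -0.30 with both and -0.11 with TGFB1. SLC44A4 was at -0.24 with voom, -0.49 in the set 33 to 44, -0.20 without the 3 libraries, -0.22 with the GC offset too, -0.76 with DMSO and -0.0248 with RepSox. COL2A1 was at -0.27 with RepSox, GALNT10 at -0.32 with DMSO, SREBF1 at -0.0065 with the GC offset, and RORA at -0.14 in the set 21 to 32, -0.36 with DMSO and -0.14 with TGFB1. With 1 library left out, TET2 ran between -0.2887 and 0.295, ATF5 between -0.0327 and 0.1795, SLC44A4 between -0.0176 and 0.442 and RORA between -0.0028 and 0.312. Of the 91 named genes called, 1 was lost with RLE scaling, DESeq2 and voom (SLC38A7), 4 without the filter, 2 with the 12-group model and 0 with the set term. In the set 21 to 32 8 were lost, in the set 33 to 44 8, and without the 3 libraries 4 (ASCL2, RPLP2, SLC38A7 and VIM). With the GC offset LDHA was lost, and so was SREBF1, whose sign turned. With the offset and without the 3 libraries, 3 were lost (ASCL2, RPLP2 and SREBF1). The losses were 70 with DMSO libraries alone, 81 with TGFB1 libraries alone and 91 with RepSox libraries alone. Leaving out 1 or another library lost 5 (IFITM1, IGF2, MUC16, SLC38A7 and SREBF1). Of the named genes not called, 3 were gained with DESeq2 (CTNNB1, RAB34 and SPARC), 4 with voom (these and MDGA1), 1 each without the filter, with the set term and in the set 21 to 32 (CTNNB1), 1 in the set 33 to 44 (RAB34), 1 without the 3 libraries (TET2) and 2 without 1 or another library (CTNNB1 and MDGA1).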
